A study of Homo sapiens with 4 samples.

Results

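The interferon response and antigen processing genes are a set of 45 human genes that cells switch on when they sense viral RNA or receive interferon. Among them are 4 genes of antigen processing and presentation, B2M, LAP3, PSMB9 and TAP1. Members were taken by gene symbol, and a gene was kept where a probe had a detection p under 0.05 on at least 2 arrays, with its brightest kept probe as its value. Of the 45 genes, 44 had a probe with 1 symbol, 33 were kept and 11 were not. One further listed gene was not analysed here. The 33 genes stand among 11200 kept genes of the whole array.

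Expression was measured in MCFDCIS cells, a breast cancer line of the basal subtype. Cells received a control siRNA, labelled siOTP NT, or siRNA against Slug, the transcriptional repressor encoded by SNAI2, and total RNA was taken 72 hours later. Each transfection had 2 biological replicates, numbered 1 and 2, and all 4 samples were hybridised to 1 Illumina bead array chip. The labels do not say whether replicates came from separate days or stocks, so p-values measure only the spread between these arrays. The comparison addressed here is whether the Slug siRNA set off an interferon response that the control siRNA did not. No untransfected sample was analysed here, so a response to both siRNAs would not appear in the difference between them.

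Interferons are secreted proteins that bind receptors coupled to JAK kinases and activate STAT and IRF transcription factors. The complex that contains IRF9 binds a short promoter element, the interferon-stimulated response element, and raises a large set of antiviral genes together. Double-stranded RNA, long or short, can be sensed by the cytoplasmic helicases encoded by RIGI and IFIH1, by the kinase encoded by EIF2AK2 and by the OAS enzymes, and synthetic siRNAs are known to engage this system in some cells and designs.

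Promoter stretches of 8 members are shown because the same response element lies in the window around the start of genes with different readings in these data. Of the 44 genes, 36 had a RefSeq promoter window, 250 bases before to 50 bases after a start on GRCh38.p14. The element was searched as GAAANNGAAA on both strands, which reads TTTCNNTTTC on the other strand, and overlapping matches were counted. It was found in a window of 25 of the 36 genes, against 4.38% of all 27305 genes with a window. Capitals mark the matches, and each stretch is given 5′ to 3′ on the strand of its gene. ISG15 and IFI44 read higher on both Slug siRNA arrays, ISG20 and BST2 read lower, the groups overlapped for B2M and TAP1, and IFIT1 and MX1 were not detected. Over all kept genes, 23.6% read higher on both Slug siRNA arrays and 21.5% lower, so these readings only describe the 4 arrays.
ISG15 (chr1:1013364-1013419, plus strand): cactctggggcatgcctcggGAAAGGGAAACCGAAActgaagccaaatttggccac
IFI44 (chr1:78649751-78649800, plus strand): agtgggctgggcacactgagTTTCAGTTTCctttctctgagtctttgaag
ISG20 (chr15:88638927-88638976, plus strand): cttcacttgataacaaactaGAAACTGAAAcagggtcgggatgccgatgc
BST2 (chr19:17405725-17405780, minus strand): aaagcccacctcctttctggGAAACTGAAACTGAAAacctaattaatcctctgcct
B2M (chr15:44711353-44711408, plus strand): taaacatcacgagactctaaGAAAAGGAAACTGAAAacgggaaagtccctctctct
TAP1 (chr6:32853803-32853858, minus strand): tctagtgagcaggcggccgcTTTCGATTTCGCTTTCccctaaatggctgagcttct
IFIT1 (chr10:89392487-89392549, plus strand): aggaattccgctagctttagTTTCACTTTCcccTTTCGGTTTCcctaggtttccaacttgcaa
MX1 (chr21:41420549-41420598, plus strand): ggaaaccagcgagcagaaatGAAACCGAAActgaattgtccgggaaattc

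A match is a description of these letters and not a measured binding site. Matches were spread over genes of every such reading. Among the 36 genes with a window, they were found for 4 of the 7 that read higher on both Slug siRNA arrays, 5 of the 7 that read lower, 11 of the 14 whose groups overlapped and 5 of the 8 that were not kept. The palindromic element TTCNNNGAA, the letters of the gamma-activated site, was found for 13 of the 36 genes, against 9.38% of all genes with a window. CXCL11, IFI35, IRF1, IRF9, OAS1 and SP110 held it without the first element.

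SNAI2, the target, read 8.95 and 9.01 on the control arrays and 8.57 and 8.51 on the Slug siRNA arrays (log2 intensity), which is -0.44 on the log2 scale (SE 0.16, limma adjusted p = 0.316). Both Slug siRNA arrays lay below both control arrays, but the difference did not pass the adjusted threshold. Between 39.8% and 40.8% of the 47323 probes were detected on an array, with a median of 20 or 21 beads behind a probe, and the kept interferon probes had 7 to 39 beads. Precision is limited by the number of arrays. Of the epithelial markers KRT5, KRT14, EPCAM and CDH1, all 4 were kept. Their summed linear intensity was 12308 and 12321 with control siRNA and 15542 and 15232 with Slug siRNA. KRT14 was dim, at 5.66 and 6.20 with control and 5.41 and 5.86 with Slug siRNA (log2 intensity), and adds little to the sum. The sum follows its brightest probes, and the log2 fold changes were 0.14 for KRT5, 0.38 for EPCAM and 0.52 for CDH1 but -0.30 for KRT14. Of 9 leukocyte markers with a probe, 6 were not detected on 2 arrays, PTPRC among them, while CD14, CD68 and NCAM1 were, with sums of 1122 and 1013 with control and 1695 and 1062 with Slug siRNA. CD14 stood at 0.46, CD68 at -0.22 and NCAM1 at -0.28. Of 6 fibroblast and endothelial markers, COL1A1 and PECAM1 were kept, with sums of 603 and 441 with control siRNA and 402 and 250.0 with Slug siRNA, while COL1A2, COL3A1, PDGFRB and VWF were not. PECAM1 stood at -0.78 and COL1A1 at 0.09. The part of these markers in the results was not tested, and in bulk RNA fewer cells of a type and less RNA per cell cannot be told apart.

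In the main fit, which has no replicate block, no interferon or antigen processing gene passed the limma adjusted p under 0.05, where 0.116% of all kept genes did. With the replicate number as a block 2 did, IRF7 and ISG15, as given in the last section. The 33 genes did not move together. Their log2 fold changes (Slug siRNA minus control siRNA) ran from -0.86 to 0.84 with a median of 0.06, and 18 were positive and 15 negative (51.6% and 48.4% of all genes). Over all 11200 genes the median was 0.01. At an unadjusted p under 0.05, 3 members were higher, namely ISG15, IRF7 and SP110, and 3 were lower, namely PSMB9, ISG20 and IRF1. Over all genes 6.18% were higher and 6.87% lower by that rule, 13% in all, and 6 of 33 is a share near that background. In 8 members both Slug siRNA arrays lay above both control arrays and in 7 they lay below, where 23.6% and 21.5% of all genes did so. With median scaling in place of quantile normalization those counts were 12 above and 5 below, and over all genes 27.3% and 18.3%. The same scaling gave 5 members higher and 3 lower at an unadjusted p under 0.05, where 13.3% of all genes passed in either direction.

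The 95% intervals of the fit are given on the normalized log2 scale. For dim genes such as CXCL10, IFIT2, IFIT3 and TRIM22, whose differences that scale understates, they do not limit the difference in RNA. The intervals included 0 for 27 of the 33 genes, and for 28 they lay wholly within a 2-fold difference in either direction. For 31 genes the interval ended below a 2-fold rise, the exceptions being ISG15 and IRF7. For 30 genes it started above a 2-fold fall, the exceptions being PSMB9, ISG20 and IFITM1.

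**Figure D1:**
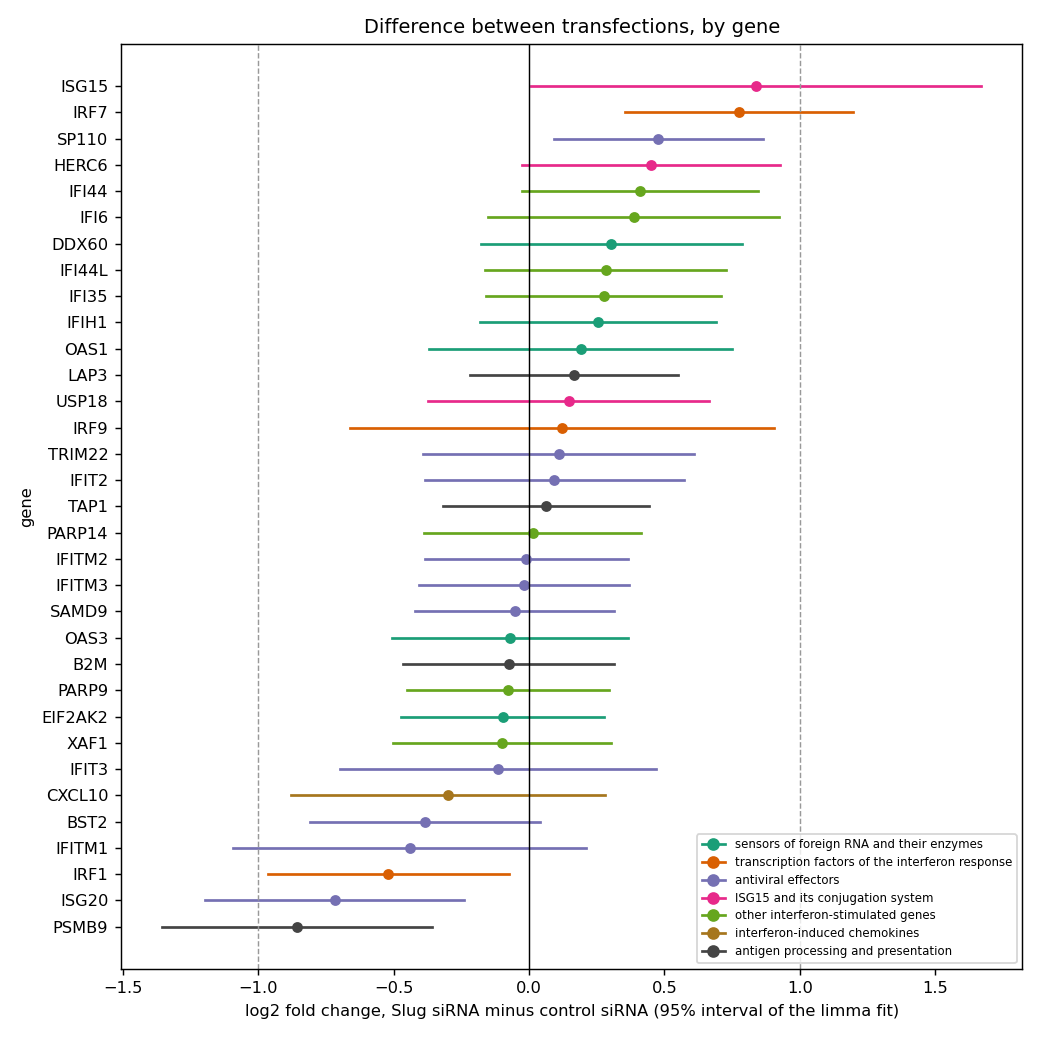
Log2 fold change of each of the 33 kept genes, Slug siRNA minus control siRNA, ordered by value, with the 95% interval of the limma fit (2 arrays per group) as a bar, colour for the role of the gene and dashed lines at a 2-fold difference. The values run from -0.86 (PSMB9) to 0.84 (ISG15), and 27 of the bars cross 0.

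Differences below are log2 fold changes, Slug siRNA minus control siRNA, and levels are normalized log2 intensities given in the order of replicates 1 and 2. Among the sensors of foreign RNA, none read clearly apart between the transfections. EIF2AK2, which encodes the kinase PKR that stops translation when bound to double-stranded RNA, read 9.88 and 9.79 with control siRNA and 9.77 and 9.70 with Slug siRNA. The difference was -0.10 (SE 0.16, adjusted p = 0.875, 95% interval -0.47 to 0.28), and although the groups did not overlap, the difference was smaller than its standard error. IFIH1, the gene of the helicase MDA5, read 7.57 and 7.34 against 7.86 and 7.56, a log2 fold change of 0.26 (adjusted p = 0.641), with overlapping groups. OAS1, an enzyme that makes the second messenger of RNase L, read 7.02 and 7.21 with control siRNA and 6.98 and 7.63 with Slug siRNA. The difference was 0.19 (SE 0.24, adjusted p = 0.818), and the Slug siRNA arrays lay on either side of the controls. The other 2 kept OAS1 probes gave 0.33 and 0.43, with both Slug siRNA arrays above both controls on each. OAS3, a related enzyme for long RNA, stood at -0.07 and the helicase gene DDX60 at 0.30, and the groups overlapped for both.

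Of the 3 transcription factors kept, 2 had positive and 1 a negative log2 fold change (51.6% and 48.4% of all genes), and none passed the adjusted threshold in the main fit. IRF7, the factor that amplifies type I interferon production, read 6.81 and 7.13 on the control arrays and 7.75 on each Slug siRNA array. The Slug siRNA arrays were the higher ones, with a log2 fold change of 0.78, or 1.71-fold (SE 0.18, adjusted p = 0.150, 95% interval 0.36 to 1.20), and 144 of 11200 genes had a value at least as high. A dimmer IRF7 probe, detected on Slug siRNA replicate 2 only, read 111 and 120 intensity units with control and 127 and 134 with Slug siRNA, and the third read at background. IRF1, the factor induced early by interferon gamma, read 7.58 and 7.81 with control and 7.34 and 7.01 with Slug siRNA. Here the Slug siRNA arrays were the lower ones, with a difference of -0.52 (SE 0.19, adjusted p = 0.321). IRF9, the DNA-binding subunit of the complex that reads the response element, gave 7.26 and 6.66 with control and 7.55 and 6.62 with Slug siRNA. Its value on Slug siRNA replicate 2 rests on 7 beads, the fewest of a kept member. Replicate 1 was higher than replicate 2 in both groups, and the groups differed by 0.12 (SE 0.33, adjusted p = 0.934).

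Of the 15 antiviral effector genes, 10 were kept, and 7 of these had negative and 3 positive log2 fold changes. ISG20, an exonuclease that degrades viral RNA, read 11.24 and 11.00 with control siRNA and 10.62 and 10.19 with Slug siRNA. Both Slug siRNA arrays were lower, by 1.65-fold on average (log2 fold change -0.72, SE 0.20, adjusted p = 0.227, 95% interval -1.20 to -0.24). SP110, a nuclear body protein, read 7.95 and 8.01 with control and 8.55 and 8.37 with Slug siRNA, with the Slug siRNA arrays the higher ones (difference 0.48, SE 0.16, adjusted p = 0.299). Its 4 kept probes all had both Slug siRNA arrays above both controls, with log2 fold changes of 0.48, 0.63, 0.63 and 0.60, and none passed (adjusted p from 0.176 to 0.299). They share the gene and the arrays and are not replicates.

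BST2, the tetherin that holds budding virions on the cell surface, read 10.98 and 10.80 with control and 10.65 and 10.37 with Slug siRNA (log2 fold change -0.38, adjusted p = 0.443), with the Slug siRNA arrays lower. The IFITM proteins block viral entry at membranes. IFITM1 read 10.35 and 9.85 against 10.01 and 9.31, a difference of -0.44 (SE 0.28, adjusted p = 0.581) with overlapping groups and replicate 1 the higher in each. IFITM2 and IFITM3 differed by -0.01 (95% interval -0.39 to 0.36) and -0.02 (-0.41 to 0.37), and by 0.021 and 0.024 with median scaling. The 3 IFITM genes are close paralogs, and how far their probes share transcripts was not tested. SAMD9, a restriction factor of poxviruses, stood at -0.05. The ubiquitin ligase gene TRIM22 and the IFIT1 partners IFIT2 and IFIT3, whose signals lay near the detection limit, stood at 0.11, 0.09 and -0.11.

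ISG15, a ubiquitin-like protein that is conjugated to newly made proteins, had the highest log2 fold change of the set. It read 5.41 and 6.43 on the control arrays and 6.45 and 7.07 on the Slug siRNA arrays. Control replicate 1 lay near the detection limit, at 137 intensity units against a lowest detected signal of 124. Both Slug siRNA arrays were higher, but Slug siRNA replicate 1 exceeded control replicate 2 by little, and the control arrays differed from each other by more than the mean difference. Replicate 2 was the higher in each group, and the differences within replicates 1 and 2 were 1.04 and 0.64. The mean difference was 0.84, or 1.79-fold (SE 0.35, adjusted p = 0.393, 95% interval 0.01 to 1.67). Without control siRNA replicate 1 it was 0.33. HERC6, an E3 ligase gene of the family that attaches ISG15, read 6.66 and 7.00 with control and 7.11 and 7.45 with Slug siRNA (log2 fold change 0.45, SE 0.20, adjusted p = 0.419), with no overlap. USP18, the protease that removes ISG15 and dampens receptor signalling, stood at 0.15 (adjusted p = 0.859), with overlapping groups.

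Of the 7 other interferon-stimulated genes kept, 5 had positive and 2 negative differences, and none passed the threshold. IFI44 read 5.85 and 5.90 with control and 6.09 and 6.47 with Slug siRNA, a difference of 0.41 (SE 0.18, adjusted p = 0.425) with the Slug siRNA arrays higher. IFI6, a mitochondrial and endoplasmic reticulum protein, stood at 0.39 with overlapping groups, and its second kept probe at -0.05. IFI35 stood at 0.28 with no overlap. IFI44L, the paralog of IFI44, was read in opposite directions by its 2 kept probes, 0.28 from the brighter and -0.68 from the other (adjusted p = 0.604 and 0.164). The second probe was not above background on either Slug siRNA array, and its control mean was at least 1.30-fold higher. That probe passed the filter through the control arrays only, so it had to differ in that direction. PARP14 and PARP9, mono-ADP-ribosyltransferase family genes of the response, stood at 0.01 and -0.08, and the pro-apoptotic gene XAF1 at -0.10. CXCL10, the chemokine that draws T cells and a sensitive reporter of interferon, was detected on 1 array of each group. It read 5.50 and 4.85 with control and 4.72 and 5.03 with Slug siRNA (log2 fold change -0.30, SE 0.25, adjusted p = 0.689).

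**Figure D2:**
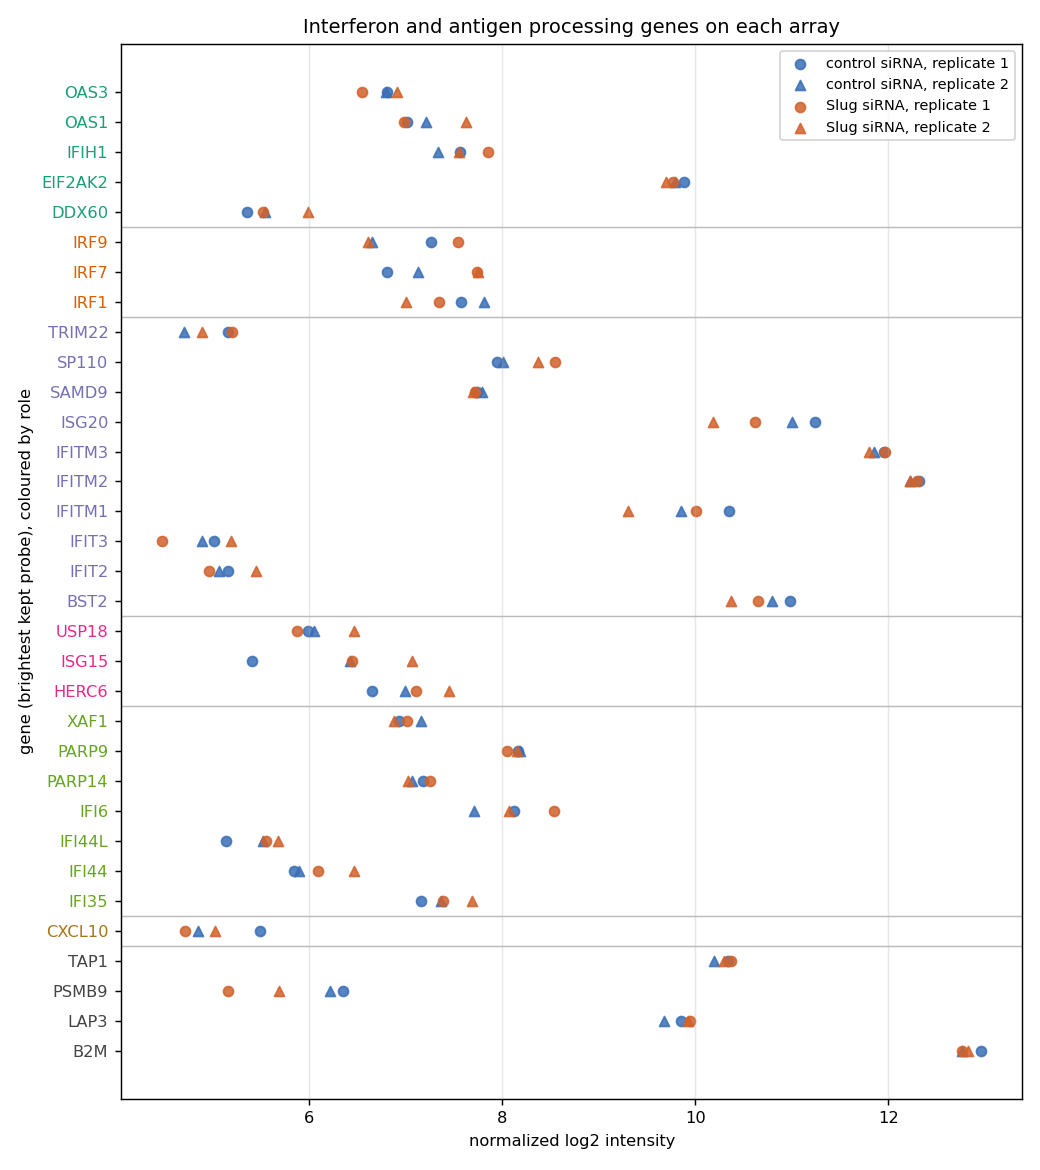
Normalized log2 intensity of the 33 kept genes on each of the 4 arrays, blue for control siRNA and orange for Slug siRNA, circles for replicate 1 and triangles for replicate 2. Blocks from the top hold RNA sensors, transcription factors, antiviral effectors, the ISG15 system, other interferon-stimulated genes, the chemokine CXCL10 and antigen processing. The colours separate in both directions, orange to the right for ISG15 and IRF7 and to the left for PSMB9 and ISG20, and mix for most other genes.

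In antigen processing, B2M and TAP1 differed by little and the probes of PSMB9 disagreed. B2M, the light chain of every class I molecule, read 12.96 and 12.76 with control siRNA and 12.76 and 12.82 with Slug siRNA. The difference was -0.07 (SE 0.17, adjusted p = 0.914, 95% interval -0.46 to 0.32), and its second probe gave -0.04. TAP1, a subunit of the peptide transporter of the endoplasmic reticulum, read 10.34 and 10.20 against 10.37 and 10.29, a difference of 0.06 (SE 0.16, adjusted p = 0.931, 95% interval -0.32 to 0.44). LAP3, a leucine aminopeptidase, stood at 0.17 (adjusted p = 0.754) with the Slug siRNA arrays just above the controls.

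PSMB9, a catalytic subunit of the immunoproteasome, had the lowest log2 fold change of the set. Its brightest probe read 6.35 and 6.22 with control and 5.17 and 5.69 with Slug siRNA. Both Slug siRNA arrays were lower, by 1.81-fold on average (log2 fold change -0.86, SE 0.21, adjusted p = 0.175, 95% interval -1.36 to -0.36). On Slug siRNA replicate 1 this probe lay near the detection limit, at 133 intensity units against a lowest detected signal of 127. A second kept probe, near the detection limit, gave 0.02 (95% interval -0.59 to 0.63), and the mean of both probes gave -0.32. The starts of PSMB9 and TAP1 lie 488 bases apart on chromosome 6 on opposite strands. GAAANNGAAA was found in the TAP1 window, and the matches shown above lie between the 2 starts. The PSMB9 window held no match, but it covers only 250 bases before its start. It shares 13 bases with the TAP1 window and does not reach those matches.

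**Figure D3:**
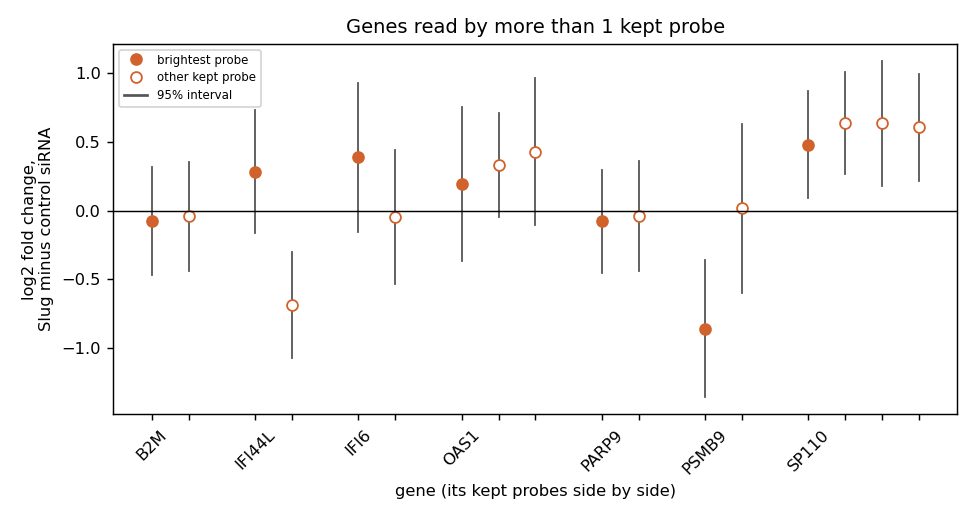
Log2 fold change of every kept probe of the 7 genes read by more than 1 kept probe, filled points for the brightest probe and open points for the others, with the 95% interval of the limma fit as a bar. The 4 SP110 probes lie together at 0.48 to 0.63, while the probes of IFI44L (0.28 and -0.68) and of PSMB9 (-0.86 and 0.02) lie apart. The IFI44L probe at -0.68 passed the filter through the control arrays only.

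Several of the genes that define a strong interferon response were not measurable on either side. The 11 genes not kept were RIGI, OAS2 and OASL among the sensors, IFIT1, MX1, MX2, RSAD2 and SAMD9L among the effectors, the ISG15 ligase HERC5, IFI27 and the chemokine CXCL11. Of these, 8 were detected on no array, and OAS2, RIGI and RSAD2 on 1 control array each. IFIT1, which binds viral RNA lacking cap methylation, was read by 2 probes. The brighter gave 116 and 125 intensity units with control siRNA and 122 and 117 with Slug siRNA, where negative controls had a median of 108 to 114 and the lowest detected signal was 124 to 129. MX1, a GTPase that traps viral capsids, read 121 and 118 against 121 and 126. RIGI, the sensor of RNA with a 5′ triphosphate, read 123 and 133 with control and 126 on each Slug siRNA array. Apart from RIGI on control replicate 2, no array detected these 3 genes, so a change below the detection limit could not be seen. CXCL10, IFIT3 and TRIM22, each detected on 1 array of each group, were the genes just inside the filter. In all, 75% of the members with a probe were kept, against 55.9% of all genes with a probe.

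**Figure D4:**
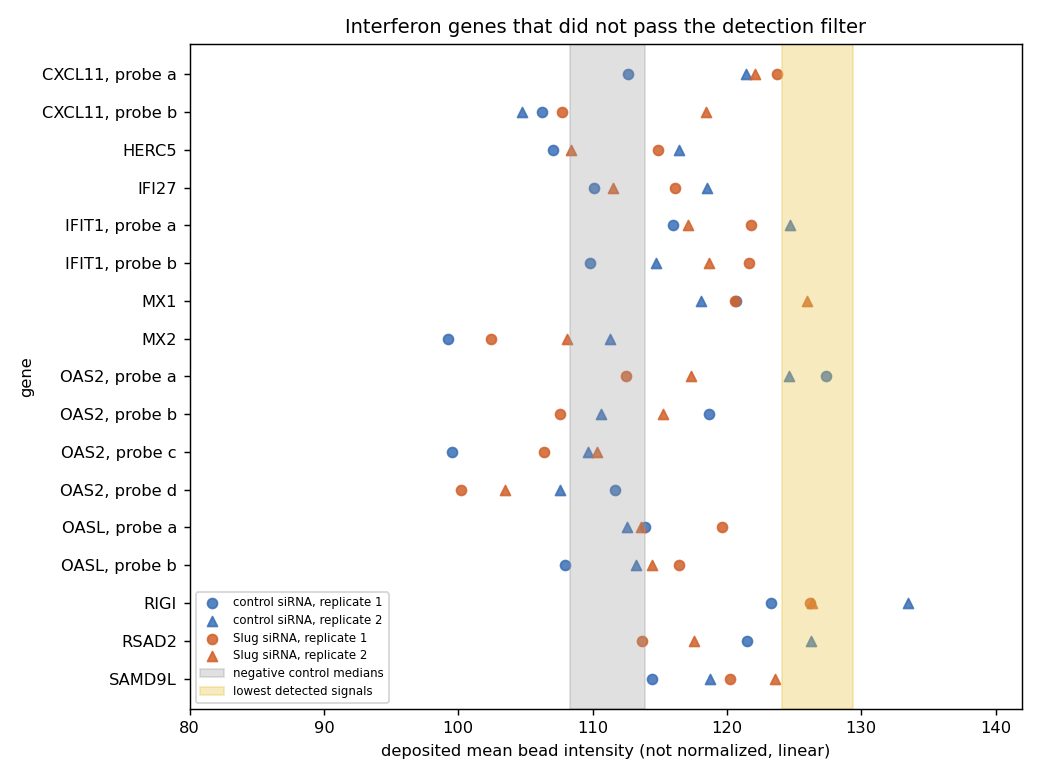
Deposited mean bead intensity, on a linear scale and not normalized, of each probe of the 11 genes that did not pass the detection filter, blue for control siRNA and orange for Slug siRNA, circles for replicate 1 and triangles for replicate 2. The grey band spans the negative control medians of the 4 arrays (108 to 114) and the yellow band the lowest detected signals (124 to 129). Most points lie below the yellow band in both groups, and the highest is RIGI at 133 on control replicate 2.

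Set side by side, the differences within replicate 1 and within replicate 2 had the same sign in 22 of 33 genes, where 67% of all genes did. Members were higher with Slug siRNA in 17 of 33 cases in replicate 1, with a median difference of 0.01, and in 20 of 33 in replicate 2, with a median of 0.16. Over all 11200 genes 5837 and 5642 were higher, with medians of 0.019 and 0.0024. ISG15 (1.04 and 0.64) and IRF7 (0.94 and 0.61) were higher in both, and PSMB9 (-1.18 and -0.53), ISG20 (-0.62 and -0.82) and IRF1 (-0.24 and -0.80) lower in both. CXCL10 (-0.78 and 0.18) and IFIT3 (-0.54 and 0.31) turned sign between the replicates.

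**Figure D5:**
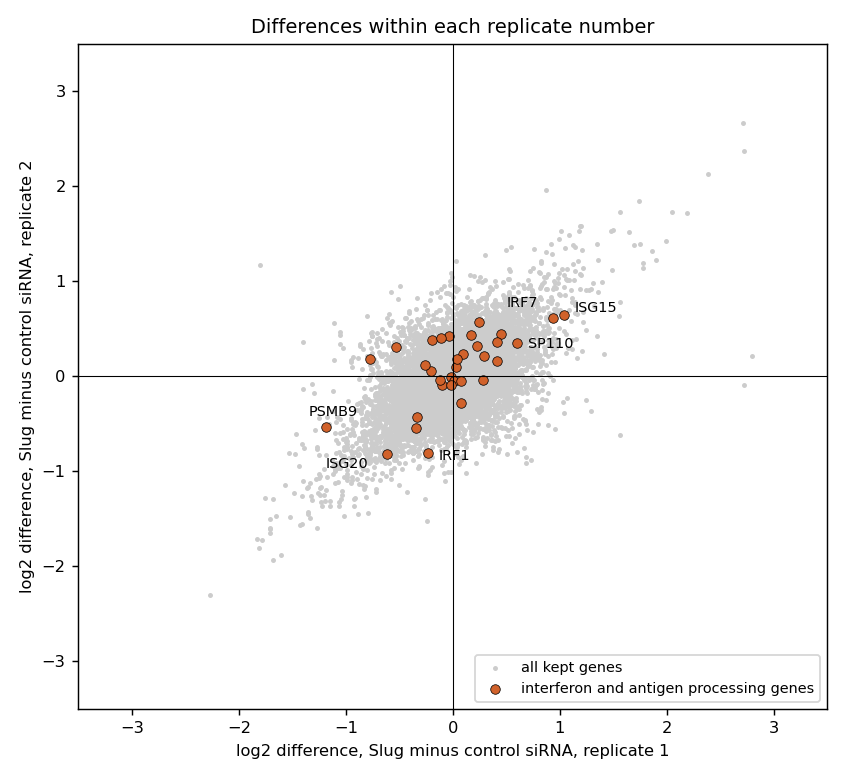
Log2 difference of Slug siRNA minus control siRNA in replicate 1 (horizontal) and replicate 2 (vertical), orange for the 33 interferon and antigen processing genes and grey for all 11200 kept genes, with 1 gene beyond the plotted range. The genes at an unadjusted p under 0.05 are named, and the orange points lie inside the grey cloud on both sides of 0.

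The rest of the pathway was read from 6 further lists of 125 genes, of which 121 had a probe and 70 were kept. None passed the limma adjusted threshold, 5 were higher and 2 lower at an unadjusted p under 0.05 (6.18% and 6.87% of all genes), and their median log2 fold change was -0.03. Of the 5, IRF8 and JAK2 were detected on no control array and passed the filter through the Slug siRNA arrays, so they had to differ in that direction. Of 21 interferon ligand genes only IFNA21 was kept, detected on 1 array of each group with a log2 fold change of 0.04, and IFNB1 and the IFNL genes were not. All 9 genes of the interferon receptors and their kinases were kept, with a median of -0.05. JAK2, a kinase of the interferon gamma receptor, was not above background on either control array, and the Slug siRNA mean lay at least 1.20-fold above that limit (adjusted p = 0.232). JAK1, the kinase shared by the interferon receptors, stood at -0.33 (adjusted p = 0.443).

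Of 20 further genes of nucleic acid sensing 13 were kept, 9 of them with negative values and a median of -0.14. CGAS, the sensor of cytosolic DNA, stood at -0.55 (adjusted p = 0.561) and TRAF6, a ubiquitin ligase of Toll-like receptor signalling, at 0.54 (adjusted p = 0.370). Among 28 kept interferon-stimulated genes outside the set, 18 were positive and 10 negative, with a median of 0.07. GBP2, a guanylate-binding GTPase induced by interferon gamma, stood apart from them. It read 8.17 and 7.52 with control siRNA and 9.37 and 9.10 with Slug siRNA, with both Slug siRNA arrays higher in a log2 fold change of 1.39, or 2.62-fold (SE 0.24, adjusted p = 0.082, 95% interval 0.82 to 1.96). It did not pass the threshold, but among the settings without a replicate block it passed without background correction (log2 fold change 1.09, adjusted p = 0.040) and with a larger offset (1.26, adjusted p = 0.017). IRF8, a factor best known from myeloid cells, was not above background with control siRNA, and the Slug siRNA mean lay at least 1.23-fold higher (adjusted p = 0.281).

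Class I antigen processing outside the set had 15 genes kept, with a median of -0.08. By their brightest probes none stood at an unadjusted p under 0.05. The kept probes of TAP2 disagreed, with -0.07 from the brightest and -0.53 from the other (limma unadjusted p = 0.017, adjusted p = 0.272). On that other probe, nearly as bright, both Slug siRNA arrays lay below both controls. The heavy chain genes analysed here gave log2 fold changes of -0.06 for HLA-B, -0.22 for HLA-C, -0.08 for HLA-E, -0.14 for HLA-F and -0.14 for HLA-G, each with overlapping groups. They are close paralogs, so their probes may share transcripts. TAPBP, the tapasin that bridges TAP and class I molecules, stood at -0.39 (adjusted p = 0.547) and the chaperone gene CANX at -0.26 (adjusted p = 0.559). In class II presentation 4 of 10 genes with a probe were kept. HLA-DQB1 stood at -0.71 (SE 0.33, adjusted p = 0.437) and HLA-DRA at 0.20 (adjusted p = 0.829), with overlapping groups for both.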

How the data were processed

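The authors deposited 1 intensity per probe and array, the mean over its beads on a linear scale, neither normalized nor background-subtracted, each with its standard error and bead number, and a detection p-value that ranks the probe among the negative controls of its array, per the file headers. The number of beads, a deposited count of beads and not of reads, was used as a description. A deposited table of normalized intensities served as an alternative, and how it was made is not given in the sources used here. A further 8 columns were not used.

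In R 4.3.3 with limma 3.58.1, the level and spread of the negative controls were estimated through the detection p-values, the background was removed with normexp and an offset of 16, and arrays were quantile normalized on the log2 scale. Of 47323 probes 19446 were kept (detection p under 0.05 on at least 2 arrays). The platform annotation gave 30113 probes 1 symbol, 8 several and 17202 none, 30074 of the first matched a current RefSeq gene, and 0 symbols changed. Groups were compared with lmFit and eBayes in a two-sided test (2 residual and 5.11 prior degrees of freedom), and p-values were adjusted by Benjamini and Hochberg over every kept probe. An exact permutation test of 2 against 2 arrays cannot go below 0.333, so model-based values are given. A bound for a gene not above background in a group is the brighter group's mean against the higher, per array, of the lowest detected signal and the probe's own. Fold changes of dim probes are understated, because the offset stays in the signal.

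The members and lists were chosen with earlier results of these data known, so no test over a list is given. All members could be named. Full values went to members at an unadjusted p under 0.05 and to the central genes of the pathway, and from each further list to the 2 kept genes with the largest change and the class I heavy chains. The procedure was tested on simulated data. Alternatives varied background correction, offset, scaling, filter, probe choice, the authors' normalized values, the replicate number as a block, and each array left out. Figures were drawn with matplotlib 3.10.9.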

Additional observations from a re-analysis of the deposited data

How the results depend on the processing

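Over 12 alternatives no member passed the limma adjusted threshold except with the replicate block, where 2 did: IRF7 (log2 fold change 0.78, adjusted p = 0.049) and ISG15 (0.84, adjusted p = 0.045). That fit leaves 1 residual degree of freedom and called 361 genes in all, against 13, and 11 members at an unadjusted p under 0.05, against 6, where the share of all genes rose from 13% to 21.4%. The labels do not tie a replicate number to a day or batch. Array identifiers on the shared chip end in A and B for replicate 1 and in I and J for replicate 2. Deviations of same-numbered arrays correlated across genes at r = 0.43. Counts over all genes also moved to 217 with an offset of 50, 158 without background correction, 52 with a detection p under 0.01, 34 with median scaling, 3 with the authors' values, 3 to 20 with an array left out and 0 with no filter. Among the further pathway genes 1, GBP2, passed without background correction, with an offset of 50 and with the replicate block (adjusted p = 0.015), against 0.

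The members' median log2 fold change of 0.06 was 0.0014 with no filter, 0.013 with the mean over probes and -0.030 to 0.094 with an array left out. With an array left out, 9 to 15 members lay above and 8 to 14 below the other group, where fewer arrays make overlap rarer (36.0% to 39.8% and 33.3% to 36.0% of all genes). Of the 33 members 18 kept their sign under every alternative run for them, and in 12 the sign turned only with an array left out. Signs turned for IFI44L with the mean over probes (-0.20) and for IFITM2 (0.021) and IFITM3 (0.024) with median scaling. With an array left out, log2 fold changes ranged from -0.17 to 0.024 for B2M, -0.62 to 0.021 for CXCL10, -0.15 to 0.33 for IFIT2, -0.47 to 0.24 for IFIT3, -0.055 to 0.035 for IFITM2, -0.10 to 0.064 for IFITM3, -0.34 to 0.58 for IRF9 and -0.13 to 0.51 for OAS1. They ranged from -0.26 to 0.12 for OAS3, -0.10 to 0.13 for PARP14, -0.0094 to 0.13 for TAP1, -0.11 to 0.33 for TRIM22, -0.14 to 0.44 for USP18 and -0.21 to 0.011 for XAF1. Outside the set the ranges were -0.39 to 0.27 for HLA-B, -0.44 to 0.0069 for HLA-C, -0.16 to 0.55 for HLA-DRA, -0.21 to 0.045 for HLA-E, -0.54 to 0.25 for HLA-F, -0.55 to 0.27 for HLA-G and -0.018 to 0.10 for IFNA21. Among values that kept their sign, the range was -0.79 to -0.090 for IFITM1, 0.073 to 0.53 for DDX60, 0.33 to 1.35 for ISG15, -1.20 to -0.23 for HLA-DQB1, -0.94 to -0.16 for CGAS and -0.66 to -0.12 for TAPBP. The causes were not tested. The 11 genes that were not kept were above background on fewer than 2 arrays, so only the alternative with no filter tested them.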
